A study of Mus musculus with 2 samples.

Results

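Cytidines converted to uridine within 20 bases of each other were examined in nuclear RNA of mouse cortex. A site was counted as clustered when at least 1 other site on the same chromosome, gene and strand lay 20 bases or fewer away. Of the 17755 sites in the list, 1548 (8.72%) met this rule, and they lay in 546 of the 6929 genes with a site (7.88%). Sites linked in this way from neighbour to neighbour were joined into 703 clusters.

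The data came from 1 group of 2 libraries. Mice of the genotype APOBEC1-YTH received tamoxifen at 20 mg/kg on 5 days, 24 hours apart, from an age of 10 weeks, and cortex was taken 7 days after the last dose. Nuclei were fixed in 50% ethanol, stained for the neuronal nuclear protein NeuN and sorted. The labels name neither the promoter or Cre driver of the transgene nor the number of animals behind a library, and RNA without the editor was not analysed here. Both libraries were reduced by the authors to 1 list with 1 editing level per site, which is the share of reads at that cytidine that showed the conversion. No coverage stands beside the levels, so the depth is unknown. No difference below has a replicate error or a test: each value describes this list, and an SD is a spread across sites.

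APOBEC1-YTH joins the cytidine deaminase APOBEC1 to the YTH domain, the fold by which reader proteins bind N6-methyladenosine (m6A). The fusion deaminates cytidines near a bound m6A. More than 1 cytidine around the same adenosine can be edited. The METTL3-METTL14 methyltransferase places m6A on adenosines that are followed by cytidine within a short consensus, and in messenger RNA the mark is known to be dense around stop codons and in 3′ UTRs. Sites that lie within 20 bases of each other can therefore belong to the same methylated adenosine or to neighbouring ones, and the list does not record which.

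The bases at the sites were read where RefSeq sequence (GRCm38.p6, which is mm10) covered them. The sequences at hand were windows from 250 bases before to 50 bases after gene starts and miRNA hairpins. Of the clustered sites, 15 of 1548 fell in such a window, and all 15 were cytidines on the strand of the gene. Over the whole list, 262 of 262 covered sites were cytidines. The clusters concerned are shown as 30-base stretches, 5′ to 3′ on the strand of the named gene, to give the spacing and surroundings of edited neighbours. Capitals mark the edited cytidines.
Lhx2, chr2:38368996-38369025, plus strand: cgcctacaaccctcaCagacttgaCtagcc
Lhx2, chr2:38369032-38369061, plus strand: tgccgactgtgaCgtcagtcttaaCttctg
Rasa3, chr8:13583746-13583775, minus strand: ttttccagctgaCaccccaccacaCggtaa
Rora, chr9:69364403-69364432, plus strand: tctacctggacatccagccctcCcCagacc
Pts, chr9:50528624-50528653, minus strand: tcttcggtccgaagaccatgagCgCggcgg
Ccz1, chr5:144014811-144014840, minus strand: agcctcccgaaacgggggcCgggcCgggat
Hnrnpl, chr7:28810910-28810939, plus strand: catgtcgcggaggctgctgccCcgggCgga
Gm25641, chr3:88215601-88215630, minus strand: cagctagataaccaaagataacaaCcaacc

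The stretches of Pts, Ccz1 and Hnrnpl lay at the start of those genes. The stretches of Lhx2, Rasa3 and Rora lay in the start windows of the genes Gm13584, Gm34795 and Gm15511, which run on the opposite strand. Lhx2, a LIM homeobox transcription factor gene, held both of its clusters close together. Its edited cytidines stood at 1.37% and 3.25% in the first cluster and at 1.82% and 2.38% in the second, so the 3′ site was the higher in each. In Rasa3, which encodes a Ras GTPase-activating protein, the 5′ site stood at 1.05% and the 3′ site at 2.00%. In Rora, a nuclear receptor gene, the pair was separated by a distance of 2 bases and stood at 2.38% and 2.82%. Pts, which encodes an enzyme of tetrahydrobiopterin synthesis, had the same spacing and levels of 4.88% and 5.71%. The splicing regulator gene Hnrnpl had nearly equal levels of 1.12% and 1.14%, and in Ccz1 the 5′ site (2.99%) was above the 3′ site (1.56%). The Gm25641 stretch is the complement of part of the Mir9-1 hairpin. Only 1 of the cluster's 2 sites, at 1.82%, lay within the hairpin, and that site was outside the RefSeq span of Gm25641.

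The m6A consensus known as DRACH comprises 18 words of 5 bases. Each word opens with any base but C, goes on with a purine and the pair AC, in which the A is the methylated base, and closes with any base but G. On the strand of the gene, 6 of the 8 stretches held at least 1 of these words. Of all 30-base stretches in the gene start windows, read on both strands, 38.0% held a word. In 3 of the 7 pairs with both sites in a window, an edited cytidine was the base directly 3′ of the adenosine of a word. These were the 3′ site of each Lhx2 cluster, in TGACT and TAACT, and the 5′ site of Rasa3, in TGACA. The other edited site of these pairs lay 8 and 11 bases before that adenosine in Lhx2 and 13 bases after it in Rasa3. The first Lhx2 stretch also held AGACT, with its adenosine 3 bases after the 5′ site and 6 bases before the 3′ site. In Pts the word AGACC lay further 5′, with its adenosine 8 and 10 bases before the edited pair. In Rora the adenosine of GGACA lay 13 and 15 bases before the edited pair, and that of AGACC 5 and 3 bases after it. The adenosines of TAACC and TAACA lay 14 and 4 bases before the edited site of Gm25641. Ccz1 and Hnrnpl held none of the words in their stretches. The 7 pairs came from 6 genes. The share of all cytidines in the windows that lie directly 3′ of a word's adenosine was not computed, so the 3 pairs have no background beside them. A word in a stretch is a description of its letters and not a measured methylation site.

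The base before the edited cytidine was A in 7, C in 5 and G in 3 of the 15 clustered sites. Among the 261 sites of the whole list with a readable preceding base it was G in 51.0%, C in 21.1%, A in 16.9% and T in 11.1%. All cytidines on the same strands of those windows had G before them in 34.3%, C in 32.7%, T in 19.2% and A in 13.8%. The 15 clustered sites come from 7 genes, and gene starts are rich in G and C, so these shares cannot stand for clusters elsewhere.

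Most clusters were pairs. There were 593 clusters of 2 sites, 87 of 3, 16 of 4, 5 of 5 and 2 of 6. The 110 clusters with 3 or more sites held 362 of the clustered sites. The median cluster covered 12 bases and the longest 60. In 459 genes there was a single cluster, in 56 genes there were 2, and 6 genes held 6 or more, up to 10 in a gene. The clustered sites were on the plus strand in 721 cases and on the minus strand in 827.

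Adjacent sites were spaced more often by a few bases than by the larger distances inside the rule. Of the 845 adjacent pairs, 239 were 1 to 5 bases apart, 242 were 6 to 10, 191 were 11 to 15 and 173 were 16 to 20. The next class, just outside the rule, held 148 pairs at 21 to 25 bases. At a distance of 5 bases there were 64 pairs, the most of any distance, followed by 61 at 8 bases and 60 at 4 bases. Immediately adjacent cytidines made up 19 pairs, fewer than at any other distance up to 20. The number of pairs per base of distance averaged 51.3 from 2 to 10 bases, 36.4 from 11 to 20 and 29.7 from 21 to 40. The distances chose the sites, so they are given as a description.

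**Figure D1:**
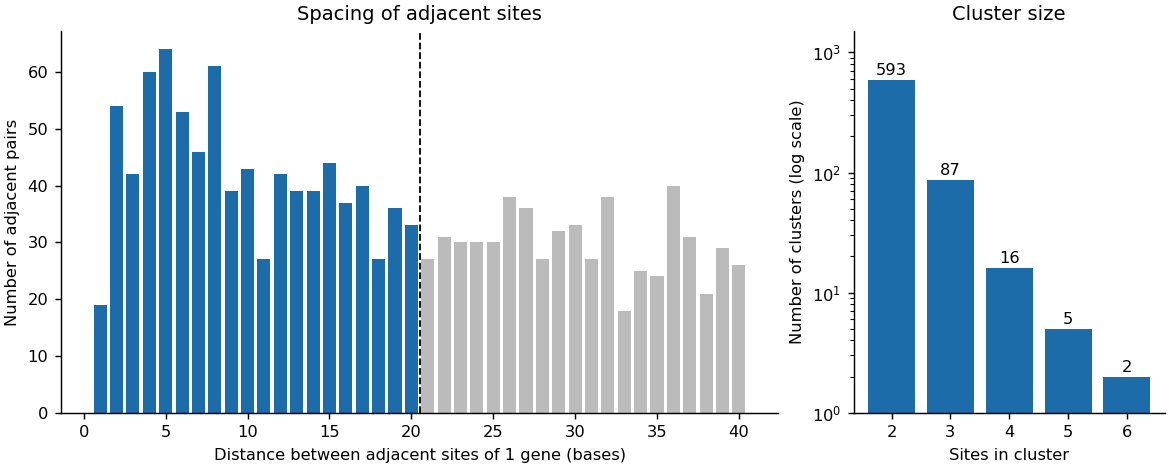
Left, number of adjacent pairs of sites of 1 gene (vertical axis) at each distance in bases (horizontal axis), blue within the 20-base rule and grey beyond it. Right, number of clusters (log axis) by number of sites. Pairs are most frequent at 5 bases (64), only 19 are immediately adjacent, and 593 clusters hold 2 sites.

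Levels at the edge of the rule were alike. The 298 sites whose nearest neighbour lay 16 to 20 bases away had a median level of 2.81% (quartiles 1.73% and 5.13%). The 251 sites with the nearest neighbour at 21 to 25 bases had a median of 2.87% (1.54% and 5.13%).

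Neighbouring cytidines carried similar editing levels. Over the 845 adjacent pairs within 20 bases, the levels of the 5′ and the 3′ site had a Spearman correlation of 0.759 across pairs, and the higher level was a median of 1.27 times the lower (quartiles 1.07 and 1.65). The median difference was 0.66 percentage points. A total of 116 pairs (13.7%) differed 2-fold or more, and 15 pairs differed 4-fold or more. In 48 pairs both sites had the same listed level. Sites this close are largely covered by the same reads and share the gene and the list's lower limit of 1%, and genes with several pairs enter more than once, so no p is attached.

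The likeness was smaller for adjacent sites that lay further apart in the same gene. At 21 to 100 bases the correlation was 0.687 over 1586 pairs, with a median ratio of 1.37, and 19.2% of pairs differed 2-fold or more. Above 100 and up to 1000 bases the correlation was 0.486 over 3071 pairs, the ratio 1.63 and the share 35.2%. Beyond 1000 bases the correlation was 0.391 over 5324 pairs, the ratio 1.72 and the share 39.7%. Over adjacent pairs at any distance 33.4% differed 2-fold or more, so the 13.7% of the pairs within 20 bases was below the level of the list.

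**Figure D2:**
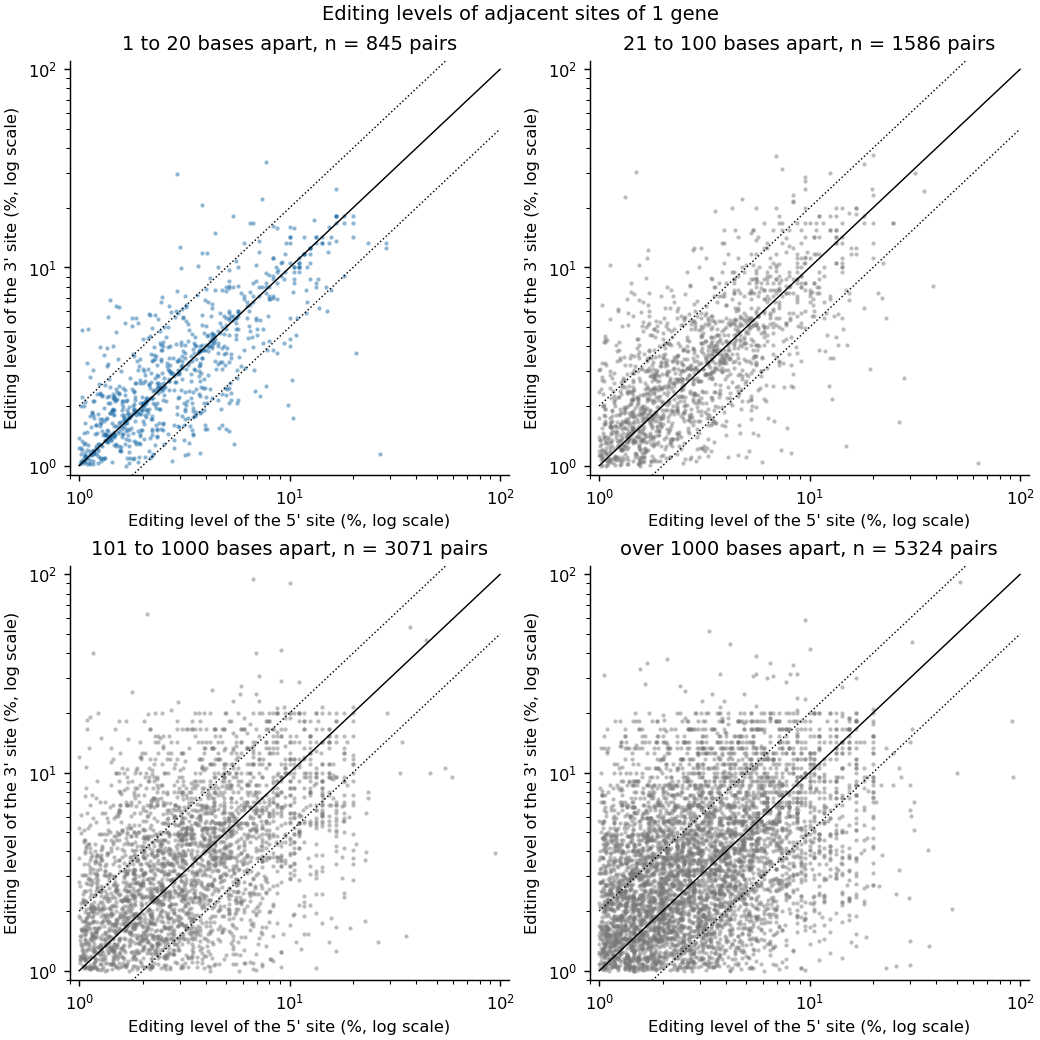
Editing level of the 3′ site against that of the adjacent 5′ site of the same gene, in percent on log axes, in 4 distance classes. Each point is a pair, the solid line marks equal levels and the dotted lines a 2-fold difference. Within 20 bases 13.7% of pairs lie outside the dotted lines, against 39.7% beyond 1000 bases.

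Within the rule, the distance made little difference to the likeness when all pairs were taken. The correlation was 0.774 at 1 to 5 bases, 0.743 at 6 to 10, 0.746 at 11 to 15 and 0.767 at 16 to 20, and it was 0.768 at 21 to 25. The median ratio was 1.23, 1.2, 1.3 and 1.33 in the 4 classes inside the rule and 1.28 just outside. Equal levels were more frequent among the closest pairs, at 23 of 239 pairs 1 to 5 bases apart (9.62%) and 5 of 173 pairs 16 to 20 bases apart (2.89%).

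Because low levels leave little room above the 1% limit, the ratio was also taken over pairs with a mean level of 5% or more. Within 20 bases 200 such pairs had a median ratio of 1.26, and 19% of them differed 2-fold or more. Their median ratio rose with distance inside the rule, from 1.19 at 1 to 5 bases to 1.25, 1.3 and 1.48 at 16 to 20. It was 1.38 at 21 to 25 bases. The shares that differed 2-fold or more were 17.6%, 17.3%, 22.2% and 18.6% in the 4 classes inside the rule. At 21 to 100 bases the ratio was 1.46 and the share 27.6%, from above 100 to 1000 bases 1.92 and 47.8%, and beyond 1000 bases 2.19 and 55.6%. Because the pairs of this class were chosen by their own mean, which bears on a correlation between the sites of a pair, their correlation cannot be set against that of all pairs. It was 0.366 within 20 bases, 0.129 at 21 to 100 bases, -0.229 from above 100 to 1000 bases and -0.362 beyond.

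The likeness was also taken relative to the gene. In the 201 genes with 10 or more sites, the level of each site was set relative to its gene's mean on the log2 scale. The deviations of adjacent sites then had a Spearman correlation of 0.513 within 20 bases (347 pairs), 0.394 at 21 to 100 bases (620 pairs), 0.142 from above 100 to 1000 bases (918 pairs) and 0.131 beyond (803 pairs). The levels of the same pairs, not set relative to the gene, had correlations of 0.653, 0.555, 0.367 and 0.318. Both series were highest within 20 bases.

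On the log2 scale the SD of levels within a cluster was 0.49 and the SD between clusters was 0.95. Differences between clusters thus made up 78.5% of the variance of clustered sites. The order along the RNA was nearly balanced. The 3′ site was the higher in 431 pairs and the 5′ site in 366, which is 54.1% of unequal pairs (exact 95% interval 50.5% to 57.6%, as if pairs were independent). The same share was 56.4% at 21 to 100 bases, 53.9% from above 100 to 1000 bases and 57.2% beyond 1000 bases. In the 110 clusters of 3 or more sites the highest level stood at the 5′ end in 30, at the 3′ end in 32, inside the cluster in 44 and was shared by several sites in 4.

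The 7 clusters with 5 or 6 sites lay in 7 genes. The cluster of Cldn5, which encodes the tight junction protein claudin-5 of brain endothelium, had 6 sites in 52 bases (chr16:18777841-18777892, plus strand). From 5′ to 3′ its levels were 2.82%, 1.35%, 2.22%, 4.96%, 1.54% and 2.33%. The fourth site stood above the others and the remaining 5 were under 3%, which puts the highest 3.67 times above the lowest. Cldn5 had 7 sites in all.

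Plxdc2, which encodes a plexin domain-containing membrane protein, had 6 sites in 60 bases (chr2:16751338-16751397, plus strand). Their levels were 2.62%, 3.17%, 3.49%, 3.88%, 2.47% and 2.94%, a more even series in which the highest was 1.57 times the lowest. The most even of the 7 was App, the gene of the amyloid precursor protein, with 5 sites in 46 bases (chr16:84955270-84955315, minus strand). Its levels were 1.5%, 1.29%, 1.5%, 1.26% and 1.73%, all close to the lower limit of the list.

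The densest of the 7 was in Slc7a5, the gene of the large neutral amino acid transporter LAT1, with 5 sites in 24 bases (chr8:121882457-121882480, minus strand). The levels were 3.06%, 4.21%, 5.71%, 2.15% and 2.60%, highest in the middle of the cluster. In Psat1, an enzyme gene of serine synthesis, 5 sites covered 44 bases (chr19:15905929-15905972, minus strand). Of its levels of 4.11%, 3.97%, 3.85%, 11.9% and 5.88%, the fourth stood apart from the rest, at 3.09 times the lowest.

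In Irf2bp2, a gene of a transcriptional corepressor, the 5 sites of chr8:126589281-126589319 (minus strand) had levels of 2.86%, 5.63%, 3.03%, 3.17% and 7.14%. The sites at 3.03% and 3.17% were immediately adjacent cytidines and differed by 0.14 percentage points. In Lrrc58, a leucine-rich repeat gene, the 5 sites of chr16:37883632-37883673 (plus strand) had 2.41%, 1.94%, 2.60%, 3.29% and 1.15%. No position within a cluster was the highest in all 7.

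**Figure D3:**
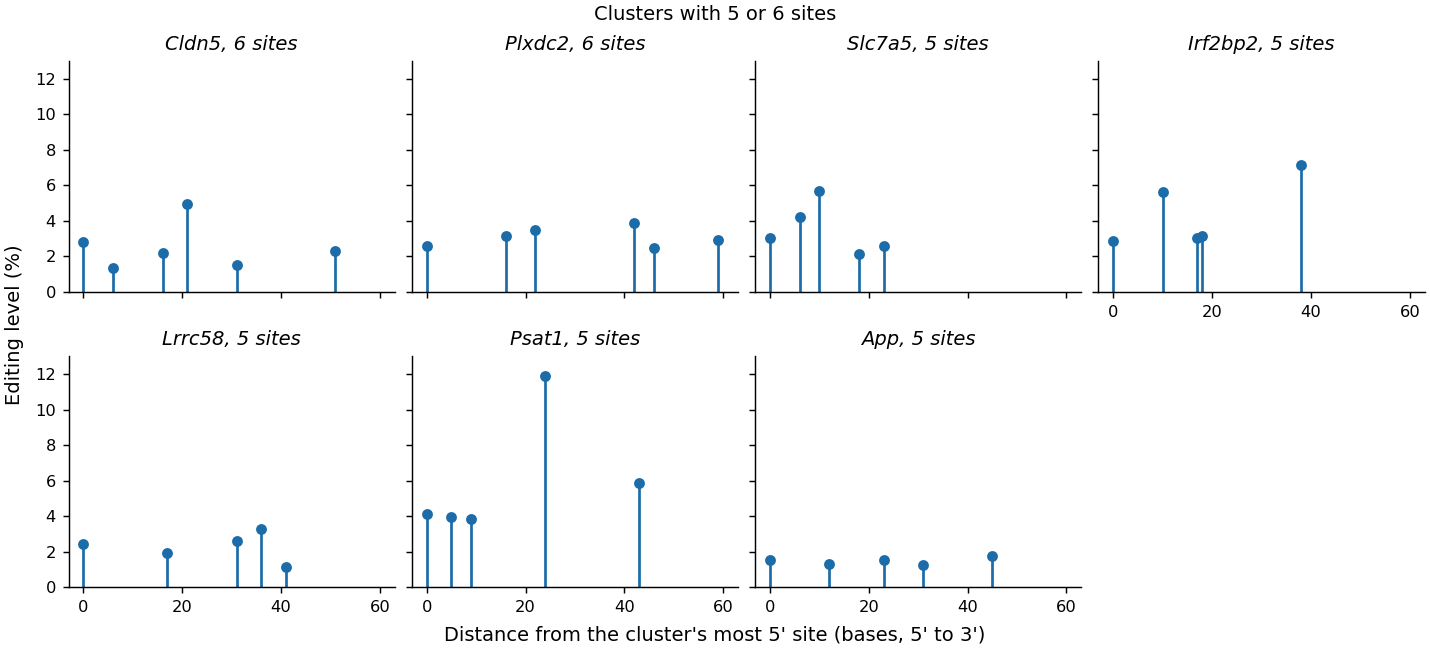
Editing level in percent (vertical axis) of each site in the 7 clusters with 5 or 6 sites, against its distance in bases from the most 5′ site of the cluster. The levels of App and Plxdc2 are even, whereas the fourth site of Psat1 (11.9%) and of Cldn5 (4.96%) stands above its neighbours.

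Clusters of 4 sites completed the 10 largest by the chosen order. Aqp4, the water channel gene of astrocyte endfeet, held 2 of them. In the more 5′ cluster (chr18:15392991-15393010, minus strand) the levels were 1.39%, 1.40%, 6.82% and 2.38%. In the other, further 3′ (chr18:15392878-15392902), they were 8.11%, 6.90%, 8.57% and 10.0%. The lowest site of the second cluster thus stood above the highest of the first. In Mal, a gene of myelin, the 4 sites of chr2:127634654-127634680 (minus strand) had 2.44%, 1.54%, 2.29% and 5.77%.

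Clustered sites were spread over many genes. In 408 of the 546 genes a single pair made up all clustered sites. The 15 genes with the most held 201 of them (13%). Clusters were more frequent in genes with many sites. A gene with more sites has more chances that some lie within 20 bases, so these shares are given as a description. Of genes with exactly 2 sites 62 of 1382 (4.49%) had a cluster, and of genes with 5 to 9 sites 210 of 736 (28.5%). It was 108 of 175 (61.7%) with 10 to 19 sites and 25 of 26 (96.2%) with 20 or more. The share of sites that were clustered went from 4.49% in genes with 2 sites to 11.2% in genes with 5 to 9 and 33.5% in genes with 20 or more.

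Of the 15 genes with the most clustered sites, 14 are described here. Aqp4 had 23 clustered sites of 45, in 9 clusters, at levels from 1.39% to 10.0% with a median of 3.52%. Its 22 other sites ran from 1.13% to 8.64% with a median of 2.14%, so the ranges overlapped almost fully. All clustered sites lay in the last 5 kb of the gene span. Gja1, the gap junction gene connexin 43 of astrocytes, had 20 of 33 in 8 clusters, from 1.37% to 6.32% (median 2.38%), and its 13 other sites had a median of 1.5%. The 20 sites fell within 1486 bases. In both genes the clustered sites had the higher median.

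The glial glutamate transporter gene Slc1a2 had 17 clustered sites of 38 in 8 clusters. They ran from 1.12% to 3.6% with a median of 1.41%, and the other sites had a median of 1.45%. Slc1a3, the other main glial glutamate transporter gene, had 16 of 23 in 6 clusters, from 1.07% to 3.29%, with medians of 1.35% for clustered and 1.88% for other sites. Kcnj10, the inwardly rectifying potassium channel gene of glia, had 16 of 36 in 7 clusters, from 1.09% to 3.48%. Its 20 other sites reached 14.95%, so its highest levels were outside clusters.

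Tmem184c, a transmembrane protein gene, had 9 clustered sites of 12, the largest share among these 14 genes (75%), all within 229 bases. From 5′ to 3′ the 4 clusters held 2.38% and 2.60%, then 8.0% and 6.90%, then 9.59% and 13.3%, then 13.3%, 8.33% and 11.1%. Levels were low in the most 5′ cluster and several times higher in the next 3. Mal had 10 of 16 in 3 clusters within 254 bases, from 1.34% to 5.77%. Igfbp5, the gene of an insulin-like growth factor binding protein, had 8 of 24 in 3 clusters, from 4.17% to 13.8% with a median of 5.35%, above the median of 4.05% of its other sites.

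The distance to the 3′ end of the span varied among the other genes of this group. Fat3, a protocadherin-related gene, had 10 of 32 sites in 4 clusters within 2054 bases, 464929 to 466982 bases from the 3′ end. Their levels ran from 1.0% to 3.57%. Lrrc58 had 12 of 33, with 0 of the 12 in the last 5 kb and the nearest 5184 bases from the end. Ank2, the ankyrin-B gene, had 8 of 27, of which 6 lay in the last 5 kb.

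Paqr8, a progestin receptor family gene, had 10 of 28 clustered sites. The POU transcription factor gene Pou3f3 had 10 of 22, and the sulfotransferase gene Chst2 had 8 of 22. Their clustered sites were all in the last 5 kb, with medians of 2.17%, 2.21% and 1.88%. In Chst2 the other sites had a higher median (3.58%) and in Paqr8 a lower one (1.90%). The direction of the difference between clustered and other sites thus differed from gene to gene.

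**Figure D4:**
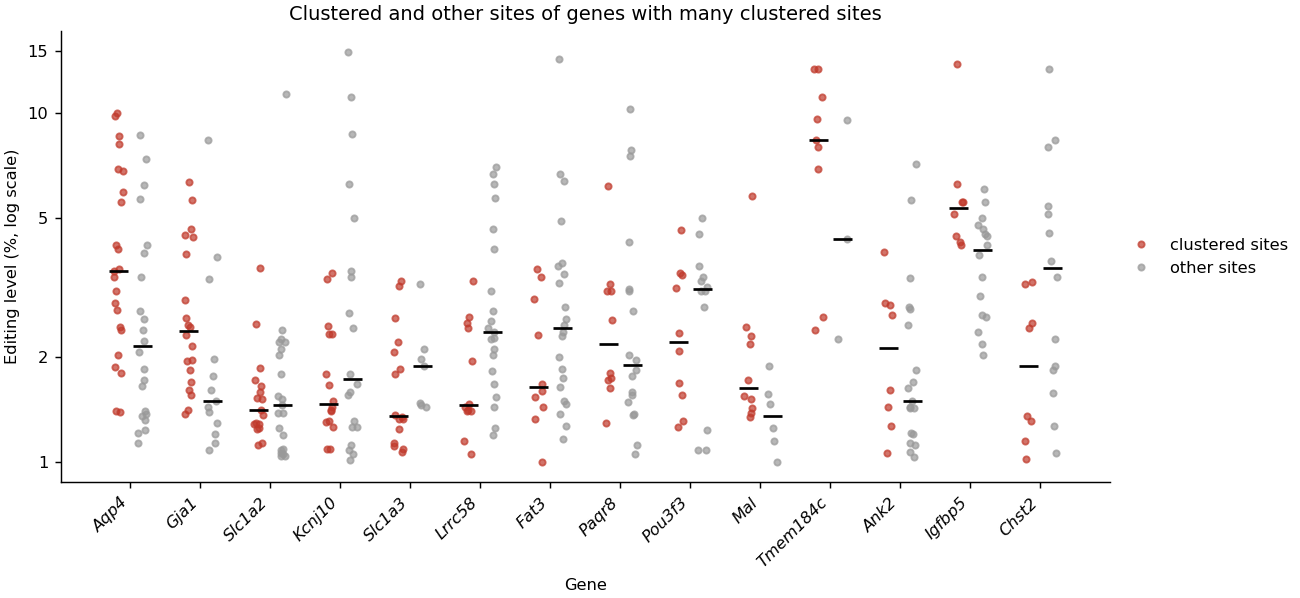
Editing level in percent (log axis) of each clustered site (red) and each other site (grey) in 14 of the 15 genes with the most clustered sites, the remaining gene not being drawn. Black bars mark medians. The ranges of the 2 kinds of site overlap in each gene drawn, and Tmem184c has the highest median of clustered sites (8.33%).

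Clustered sites had lower levels than the other sites of the list. Pooled over the genes with a cluster, the medians of clustered and other sites were close, whereas gene by gene the mean of the clustered sites was more often the lower. The median was 2.63% for the 1548 clustered sites (quartiles 1.68% and 4.88%) and 3.77% for the 16207 other sites (2.06% and 7.14%). The 2540 other sites of the 546 genes with a cluster had a median of 2.74% (1.64% and 5.11%). Levels under 2% made up 34.5% of clustered sites and 23.7% of all other sites. Levels of 20% or more were reached by 12 clustered sites (0.775%) and 346 other sites (2.13%). Neither contrast was seen against the other sites of genes with a cluster. Of those, 64.7% had a level of 2% or more, against 65.5% of clustered sites, and 15 (0.591%) reached 20%. Their mean level was 4.10%, against 4.13% for clustered sites. Calling a level of 1% or 2% takes more reads than calling a high one. Coverage is not given, so the part of depth in the difference was not tested.

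Of the 477 genes with both kinds of site, the mean of the clustered sites was the lower in 298 and the higher in 177. The median over these genes was 2.87% for the clustered and 3.63% for the other means, and the median difference was -0.48 percentage points. In 408 of the 546 genes with a cluster the clustered sites were a single pair, so many clustered means rest on few sites. Levels did not go with cluster size, with medians of 2.60% in pairs, 3.03% in clusters of 3 and 2.60% in larger ones.

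Clustered sites lay near the 3′ ends of genes more often than the other sites did. The rule rests on distances between sites, so more sites are clustered wherever sites are denser, and the positions are given as a description. The gene name matched RefSeq for 1504 of the 1548 sites (97.2%), and 1489 lay inside the gene's span. Of these, 1019 (68.4%, exact 95% interval 66.0% to 70.8%, as if sites were independent) were in the last 5 kb. The share was 47.9% of 15376 other sites, and 55.6% of the 2463 other sites of genes with a cluster. The median distance to the 3′ end was 2387 bases for clustered sites, 3790 for other sites of the same genes and 5649 for all other sites. In the first 1 kb lay 72 clustered sites (4.84%) and 1278 others (8.31%). The gene table gives no exons or UTRs, so the transcript part of a site was not analysed here.

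The share of sites that were clustered was 12.7% within 500 bases of the 3′ end, 13.8% from 1000 to 2000 bases and 5.17% from 5000 to 20000 bases. Clustered sites in the last 500 bases had a median level of 2.94%, against 5.13% for other sites there. From 20000 to 100000 bases the medians were 2.14% and 2.82%. Beyond 100000 bases they were 2.47% and 2.67%. Against other sites of all genes, the lower level of clustered sites was thus seen both near the end and far from it. Other sites of the same genes were not split by distance.

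**Figure D5:**
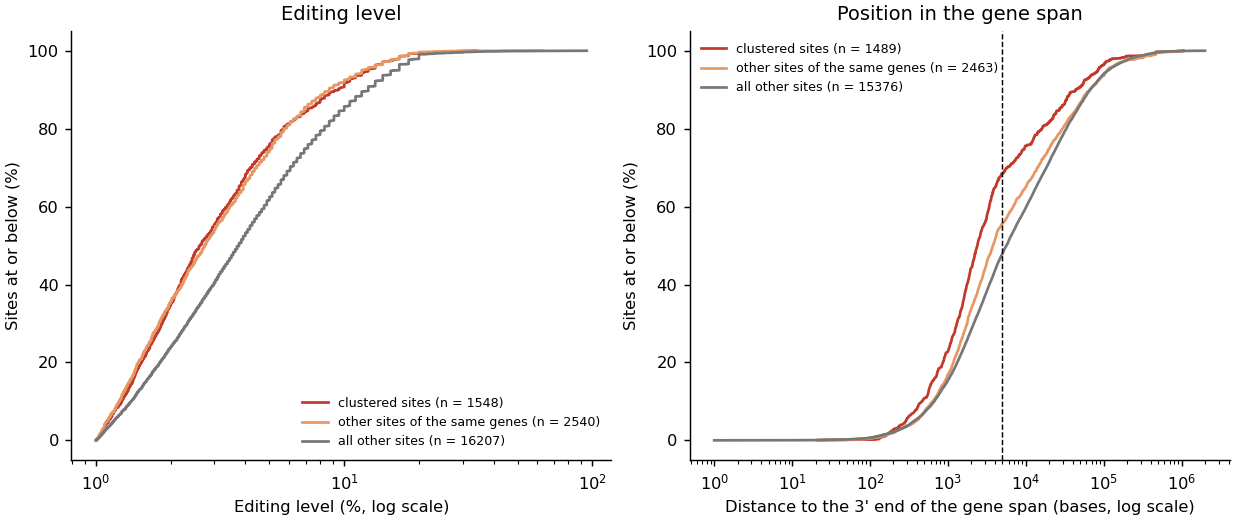
Cumulative share of sites in percent (vertical axes) by editing level (left, percent, log axis) and by distance to the 3′ end of the gene span (right, bases, log axis, dashed line at 5 kb). Clustered sites and other sites of the same genes nearly coincide in level (medians 2.63% and 2.74%), and clustered sites lie nearest to the 3′ end.

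The 10 highest cluster means were those of pairs, and 9 are described here. In 4 of these the levels were unequal. In Thap12 (chr7:98716253-98716258) the levels were 28.6% and 13.3%, with a mean of 20.95%. Nceh1, a cholesteryl ester hydrolase gene (chr3:27242531-27242535), had 28.6% and 12.5%. Fat4, a protocadherin gene (chr3:38890972-38890988), had 16.67% and 25%, and Stau1, the gene of the RNA-binding protein Staufen1 (chr2:166948666-166948674), had 23.5% and 13.3%.

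The other 5 of these were nearly level pairs. Rab21, a small GTPase gene, had 20% and 16.67%, and Gm43080 had 20% and 18.18%. Oas1a, an oligoadenylate synthetase gene, had 18.18% at each of 2 adjacent cytidines. Ctbs and Fancc had 16.67% with 18.18% and 18.18% with 16.67%. These values recurred in the list, which held 261 sites at 16.67%, 191 at 18.18% and 197 at 20%. They are fractions that a small number of reads can give. Coverage is not listed, so the depth behind the highest pairs, level or unequal, is unknown. Whether their levels rest on few reads was not tested. Oas1a belongs to a family of closely related copies, so its reads may be shared between copies and its levels are uncertain.

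Some neighbours were far apart in level. Of the 10 pairs with the largest difference 8 are described here, and of the 10 with the largest ratio 9. In Cant1, a nucleotidase gene, the 5′ site had 2.90% and the 3′ site, 3 bases further on, 29.7% (chr11:118407856-118407859, minus strand). In Rnu3b1, a U3 small nucleolar RNA gene, the 5′ site had 26.8% and the 3′ site 14 bases on had 1.15%, a ratio of 23.3, the largest of the 845 pairs. U3 genes exist in near-identical copies, so the origin of these reads is uncertain.

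In Ptprb, the gene of the endothelial phosphatase VE-PTP, a site at 20.6% stood between neighbours at 3.85% and 3.70%, 5 bases before and 12 bases after it (chr10:116387872-116387899, plus strand). The fourth site of that cluster had 2.82%. Dag1, the dystroglycan gene, had 7.41% and 22.2% at 4 bases, and Calr, the calreticulin gene, had 5.41% and 18.18% at 11 bases. The pairs of Thap12 and Nceh1, given above, completed the 8. By ratio, 2 pairs of Aqp4 were among the 10, at 1.4% and 6.82% and at 9.78% and 2.02%. Clcn3, a chloride transporter gene, had 10.3% and 1.74% at 6 bases (ratio 5.94). Notch1 had 1.03% and 4.85% (4.71) and Plpp3, a lipid phosphatase gene, 1.1% and 4.90% (4.45). The 3′ site was the higher in 6 of the 10 pairs with the largest difference.

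Immediately adjacent cytidines gave 19 pairs with a median ratio of 1.12, of which 1 differed 2-fold or more. That pair was in Nfasc, the neurofascin gene, with 3.49% and 1.42%. Equal levels were listed in Sart1 (1.59%), Stox2 (1.65%), Tspan18 (16.67%) and Oas1a. Npm1, the nucleophosmin gene, had 2.08% and 2.11%, and the active zone gene Pclo had 1.83% and 2.04%.

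The share of marker genes with a cluster is given over the genes with a site. Of all genes with a site, 7.88% had a cluster, and of genes with 2 or more sites 15.5% did. Among 90 markers of glia and vessels a site was listed in 65 and a cluster in 23, and 155 of their 467 sites (33.2%) were clustered. Aqp4, Gja1, Slc1a2, Kcnj10 and Slc1a3 held 92 of the 155, and without these 5 genes 63 of 292 sites (21.6%) were clustered. Of 60 neuronal markers, 22 had a site and 2 a cluster, with 4 of 53 sites clustered (7.55%). The number of sites per gene differs between these groups and goes with clusters, and neither its part nor the difference itself was tested. Rbfox3, the gene of the sorted protein NeuN, had 0 sites. The list holds no expression values, so it does not show which of these genes were expressed.

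Among astrocyte markers 10 of the 16 with a site had a cluster (62.5%). These 16 genes held 247 sites, of which 104 (42.1%) were clustered. Of all genes with 10 to 19 sites 61.7% had a cluster, and 17.1% of the sites of those genes were clustered. However, Aqp4, Gja1, Slc1a2, Kcnj10 and Slc1a3 had 23 to 45 sites each. They held 175 of the 247 sites and 92 of the 104 clustered ones. In all genes with 20 or more sites, these 5 included, 33.5% of sites were clustered. Beside those already named, S1pr1, a sphingosine phosphate receptor gene, had 4 clustered sites from 1.03% to 2.76%, and Sox9, a transcription factor gene of astrocytes, had a pair at 1.05% and 1.05%. The oligodendrocyte list had 4 of 18 (22.2%), among them Mal, the myelin gene Mobp (5 clustered sites, 1.26% to 3.77%) and Mog (1.2% to 1.25%). In the precursor list 1 of 7 had a cluster, Ptprz1, a receptor phosphatase gene, with 6 of 20 sites from 1.67% to 2.99%.

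In the microglia list 3 of the 9 genes with a site had a cluster (33.3%). These were Selplg (5 clustered sites, 1.09% to 2.26%), the colony-stimulating factor receptor gene Csf1r (1.26% to 3.97%) and the fractalkine receptor gene Cx3cr1 (1.85% to 2.15%). The endothelial and pericyte list had 5 of 15 (33.3%), led by Cldn5, the pericyte gene Rgs5 (4 clustered sites, 1.47% to 10.4%) and the cadherin gene Cdh5 (3, 2.06% to 5.17%).

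The neuronal markers with a cluster were Celf4, a splicing regulator gene, with a pair at 10% and 10.5%, and Rorb, a layer 4 receptor gene, with 1.35% and 1.41%. They were 1 of 8 pan-neuronal and 1 of 9 excitatory markers with a site, and the inhibitory list had 0 of 5. The synaptic list had a cluster in 5 of 30 genes with a site (16.7%). The share was 7.88% of all genes with a site and 15.5% of those with 2 or more sites. Among the 5 synaptic genes were Dlgap1 (a pair at 4.35% to 5.56%), Kalrn (1.4% to 2.06%) and Pclo.

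Among cytoskeleton and axon genes 8 of the 24 with a site had a cluster (33.3%). Of the 222 sites of these genes 28 (12.6%) were clustered, against 8.72% of all sites. Of all genes with 5 to 9 sites 28.5% had a cluster, and 11.2% of the sites of those genes were clustered. In genes with 10 to 19 sites 17.1% of sites were clustered. Ank2 led with 8 clustered sites, followed by the cytolinker gene Dst (5, 2.06% to 7.46%) and the kinesin gene Kif1a (5, 1.65% to 4.14%). Among chromatin regulators 5 of the 29 with a site had a cluster (17.2%), with 6 clustered sites in the methyltransferase gene Ash1l (1.09% to 2.81%), 5 in the acetyltransferase gene Crebbp (1.53% to 3.57%) and 3 in Ehmt1 (1.0% to 1.23%). Of the 184 sites of that list 9.78% were clustered, near the 8.72% of all sites. The m6A machinery genes had 36 sites in 12 genes and the immediate early genes 21 sites in 9 genes, and in both lists 0 sites were clustered.

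Of the clustered sites 1483 lay in 519 protein-coding genes, which is 8.90% of the 16672 protein-coding sites. Long noncoding RNA genes held 13 clustered sites of 401 (3.24%) in 5 genes. Xist, the RNA of X inactivation, had 4 clustered sites of 23 in 2 clusters, from 1.47% to 3.17%. Kcnq1ot1, an imprinted antisense RNA, had a pair at 7.14% and 12%. Of the chromosomes with sites, chromosome 8 had the largest share of its sites clustered (11.9% of 1026), close to chromosomes 1 (11.4%) and 2 (11.1%). The X chromosome had 4.48% of 268 and chromosome 4 had 4.49% of 468, while chromosome Y had 0 of 3.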

How the data were processed

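Nuclei sorted for NeuN from cortex of APOBEC1-YTH mice were sequenced in 2 libraries. Per the labels' protocols, the SMARTer Stranded Total RNA-seq Kit v3 was used, whereas the molecule field names polyA RNA. Reads were aligned with STAR 2.7.5 to mm10, per the submitters' processing notes, and sites were called with Bullseye, per the series description. The labels give neither its settings nor its control. The deposited editing level of a site is a fraction, printed here as a percent, with 1 value for both libraries and no coverage. Depth is therefore unknown and replicates cannot be compared.

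Clusters, neighbour pairs and distances to span ends were computed with Python 3.11.15, pandas 2.3.3 and scipy 1.17.1 and tested on simulated data. Gene spans and sequences are RefSeq GRCm38.p6, matched by symbol or by a synonym of 1 gene only. The strand of a site was taken as that of its gene. Exact intervals are Clopper-Pearson at 95% and cover counting only.

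Members, gene lists and naming rules were chosen with earlier results of these data known. Named were the 15 genes with the most clustered sites, the 10 largest and 10 highest clusters, the 10 pairs with the largest difference or ratio, and up to 3 members of each gene list. The 14 lists were markers of 8 cell types and synaptic, m6A machinery, nuclear long noncoding RNA, chromatin, cytoskeleton and axon, and immediate early genes. Pairs of adjacent cytidines, the lowest and highest chromosomes and the short sequences were described beyond that rule. Results of some genes that these rules select are not reported here, and counts over all sites include them.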

Additional observations from a re-analysis of the deposited data

How the results depend on the processing

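Counts depended on the window and on the lowest level kept. Windows of 10 and 50 bases gave 908 and 2896 clustered sites, 342 and 906 genes, and 427 and 1216 clusters. Keeping levels of at least 2% or 5% gave 880 or 291 sites, 349 or 131 genes, and 403 or 137 clusters. The Spearman correlation between neighbours was 0.683 from 2%, 0.589 from 5% and 0.805 with 1 pair per gene, and the median ratio was 1.16 from 5%. From 2% the median level was 4.29% in clustered and 4.88% in other sites. With each gene counted once, the mean of the gene medians was 4.33% and 6.38%. In the last 5 kb lay 73.7% of clustered and 51.9% of other sites from 2%, and 64.9% and 50.5% with each gene counted once. The share of other sites there was 46.4% with a window of 50 bases. Against other sites of genes with a cluster only, chosen after seeing the data, the values were 2.74% and 55.6%. The share of clustered sites in glial and vascular markers, also recomputed after seeing the data, was 21.6% without the 5 leading astrocyte genes. Of 62 alternative values 34 stayed within the interval or factor set for them and 28 moved. A reversal of direction was not among the outcomes scored. No paired analysis was possible because there is 1 group and 1 list for both libraries, which also kept leaving out a library from being run. Bases around sites at a minimum of 5% were not run. Without coverage, the depth behind each level is unknown.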

Other observations

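Sites on opposite strands lay within 20 bases of each other in 8 places, and these are not clusters under the rule. Sites of different genes on the same strand came that close in 0 places. The closest opposite-strand sites were those of Hnrnpd (1.16%) and Gm17092 (1.74%) at a distance of 1 base. Ube3a, a ubiquitin ligase gene, had a site at 4.11%, and the antisense locus 9330162G02Rik had 2.99% at 2 bases. Casc3 (1.0%) and Gm12359 (1.06%) were 4 bases apart, and Adap2 (5.08%) and Adap2os (6.67%) 7 bases. The widest gap in level was between Gm49338 (17.4%) and the secretase gene Bace1 (3.39%) at 14 bases.

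Of the 546 genes with a cluster, 69 had no site outside clusters, and 62 of those had exactly 2 sites. Genes with Gm or Rik names accounted for 61 clustered sites in 27 genes. Canx, the calnexin gene, had 3 clusters at levels that differed between them: 4.65% to 8.0% over 4 sites, 3.92% and 4.26% at the next, and 1.33% at both sites of the last, 10444 bases or more from the 3′ end. Ankrd40 had 4 pairs, of which those at 3.23% and 3.08% and at 2.38% and 2.33% were even and those at 1.49% and 4.71% and at 2.44% and 6.67% were not. These genes were picked after their values were seen.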
